A study of Homo sapiens with 5 samples.

Results

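JAG1 encodes a cell-surface ligand of the Notch receptors, and it was chosen together with 9 other genes of Notch signalling because its level was much lower in LNCaP cells given celastrol. The members are the ligand genes JAG1 and JAG2, the receptor genes NOTCH1, NOTCH2 and NOTCH3, the target genes HES1 and HEY1, the nuclear factor genes RBPJ and MAML1, and NUMB, an inhibitor of the pathway. They are 10 of the 12165 genes that the platform annotation names alone on at least 1 probe set, and 23 of the 22215 probe sets belong to them. Every probe set is described. The celastrol against DMSO contrast itself led to the choice of members, so the member values below are a description and carry no test.

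Notch signalling passes between touching cells. A ligand of the Delta or Jagged family on one cell binds a Notch receptor on its neighbour, ADAM proteases and then gamma-secretase cut the receptor, and the freed intracellular domain enters the nucleus. There it joins RBPJ, the DNA-binding protein of the pathway, and a Mastermind coactivator such as MAML1, and genes of the HES and HEY repressor families are switched on. In the prostate the pathway is known for roles in epithelial differentiation and regrowth, and JAG1 has been studied as a gene raised in metastatic prostate cancer.

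Messenger RNA was measured on Affymetrix arrays in LNCaP cells, a human prostate cancer line that responds to androgen, grown in RPMI with fetal bovine serum. Celastrol, a triterpenoid from thunder god vine, was given at 1.25 µM for 6 h to the cells of 2 arrays. Cells of 3 further arrays received DMSO, the solvent, for the same 6 h. Titles mark the arrays within a group as biological replicates, but nothing says whether they came from separate cultures, so the spread between them may be partly technical.

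The array labelled DMSO replicate 3 did not look like LNCaP and is shown apart throughout. Its Pearson correlation with the other 4 arrays over all probe sets was 0.843 to 0.844, against 0.994 to 0.998 among those 4. Total intensity lay between 4939397 and 5348496 on the 5 arrays. DMSO replicate 3 had 11 of 12 measured luminal prostate markers more than 2-fold below the mean of DMSO replicates 1 and 2. The median level of these markers was 4.50 there, against 9.59 to 9.67 on the other 4 arrays. It had 6 of 11 measured leukocyte markers more than 2-fold above that mean, and the summed intensity of all 11 was 16423 there. On the other arrays that sum was 217 to 221 with celastrol and 214 to 216 with DMSO, and no processed intensity was 0. Basal markers summed to 520 on DMSO replicate 3, against 64.2 to 71.0 on the other 4 arrays, and fibroblast markers to 901, against 240 to 249, each with 1 marker more than 2-fold above the mean of DMSO replicates 1 and 2. Endothelial markers summed to 111, against 103 to 105, with 0 such markers. Levels are log2(intensity + 1), and differences are celastrol minus the mean of DMSO replicates 1 and 2 on that scale. Where an SD is printed for a group, it is that of 2 arrays. With so few arrays the precision is low. An exact permutation test of 2 against 2 arrays cannot go below p = 0.333. In RNA of whole cultures, fewer cells that express a gene and less RNA per cell cannot be told apart.

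JAG1 was lower with celastrol on 3 of its 4 probe sets and near level on the fourth. Probe set 209099_x_at stood at 6.01 and 6.00 with celastrol, against 7.65 and 7.66 on DMSO replicates 1 and 2. The arrays of a group lay close together and the groups were far apart. In intensity units its mean was 63.2 with celastrol and 201 with DMSO replicates 1 and 2, and the log2 difference was -1.65, a 3.14-fold lower level. Probe set 216268_s_at stood at 5.75 and 5.83 with celastrol, against 7.34 and 7.52 with DMSO. Its means were 5.79 ± 0.059 and 7.43 ± 0.124 (SD, n = 2 each), a difference of -1.64 or 3.11-fold lower. These probe sets again did not overlap between groups, and every one of the 4 pairs of a celastrol and a DMSO array gave a difference between -1.77 and -1.51 on 216268_s_at.

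The dimmer probe set 209098_s_at stood at 4.45 and 4.38 with celastrol, against 5.14 and 5.31 with DMSO, a difference of -0.81 or 1.76-fold lower. Its celastrol levels were below the median level of all probe sets, 4.91. Probe set 209097_s_at did not show this difference. It stood at 5.52 and 5.52 with celastrol, against 5.52 and 5.42 with DMSO, so the groups overlapped and the difference was 0.05. Both celastrol arrays and DMSO replicate 1 had the same processed value here. All 4 probe sets name JAG1 alone in the annotation. By the array maker's naming, the ending s marks probes shared by several transcripts and the ending x marks probes that may also bind other sequences, so the readouts of one gene need not measure the same transcripts. Whether the flat probe set measures JAG1 transcripts in these cells was not tested.

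**Figure D1:**
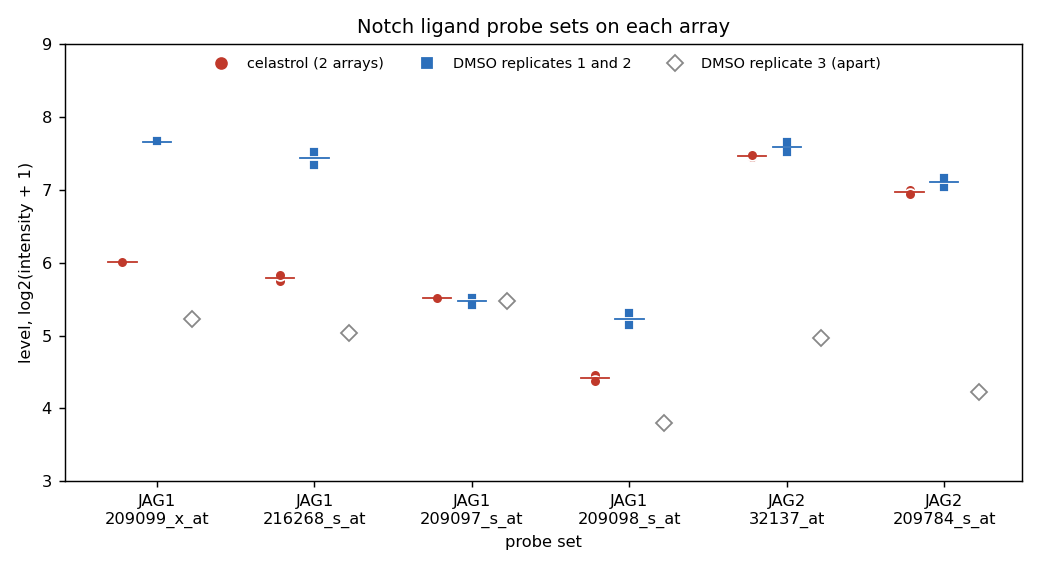
Level of each ligand probe set on each array, as log2(intensity + 1). Red circles are the 2 celastrol arrays, blue squares DMSO replicates 1 and 2 and open grey diamonds DMSO replicate 3, with short lines at group means. Both celastrol arrays lie below both DMSO arrays on 3 of 4 JAG1 probe sets, 209097_s_at shows no such gap, and the gap is narrow for JAG2.

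The JAG1 difference was large within the table as a whole. Among 22215 probe sets ordered by difference from the most negative, 209099_x_at was at rank 3, 216268_s_at at rank 4 and 209098_s_at at rank 63, while 209097_s_at was at rank 15458. Only 36 probe sets, of 25 named genes and some unnamed ones, had a difference of -1 or below. The median absolute difference over all probe sets was 0.0704. In brightness, averaged over the 4 arrays, the JAG1 probe sets stood between the 48.3 and 72.7 percentiles of all probe sets. In a limma fit across all probe sets with Benjamini-Hochberg adjustment, 1 member probe set, 209099_x_at of JAG1, was past the threshold of 0.05 on the lower side, where 0.0045% of all probe sets were, and 0 members were past it on the higher side, where 0.0045% of all probe sets were. When 40% of probe sets, the dimmest, were removed first, 2 JAG1 probe sets were past it, where 0.405% of those tested were lower and 0.503% higher. After quantile normalization the same 2 were past it, where 0.342% of all were lower and 0.545% higher. With all 5 arrays, with trend and robust variance, with the replicate number as a block or with any 1 of the 4 arrays left out, 0 member probe sets were past it. Because JAG1 was picked from this contrast, nothing is read from these counts.

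**Figure D2:**
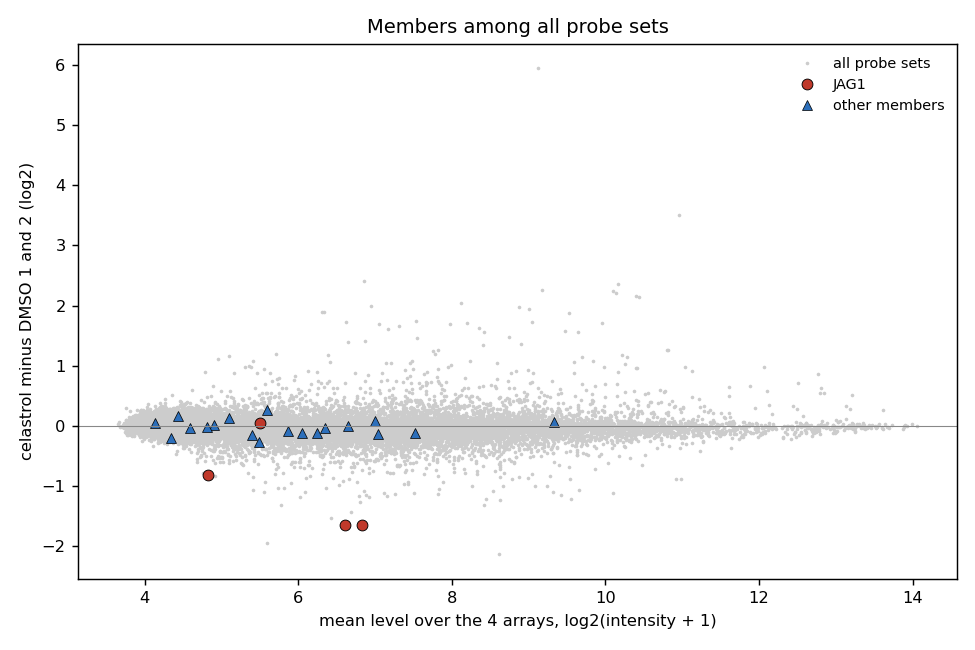
Difference between celastrol and DMSO replicates 1 and 2 (log2) against mean level over these 4 arrays, for 22215 probe sets. Grey dots are all probe sets, red circles the 4 JAG1 probe sets and blue triangles the other 19 member probe sets. Of the JAG1 points, 2 lie near the lower edge of the cloud at -1.65 and -1.64, while the blue points lie between -0.26 and 0.27.

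JAG2, the other Jagged ligand gene, was close to level. Probe set 32137_at stood at 7.45 and 7.47 with celastrol, against 7.52 and 7.65 with DMSO, a difference of -0.12. Probe set 209784_s_at stood at 6.99 and 6.94 with celastrol, against 7.03 and 7.17 with DMSO, a difference of -0.13. Both celastrol arrays were below both DMSO arrays on either probe set, yet the means differed by 1.09-fold and 1.10-fold only, and differences of single array pairs came down to -0.04. Whether the ligand genes differ in their response was not tested, since one of them was chosen for its response.

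The stretches upstream of the ligand genes are shown because these related genes had unlike values. Each is 250 bases that end at the base before the annotated RefSeq start (GRCh38.p14), printed 5′ to 3′ on the strand of the gene. Capitals would mark TGGGAA, the core of the RBPJ binding sequence, on either strand, and neither window holds it. The JAG1 window is chr20:10674000-10674249 on the minus strand and the JAG2 window chr14:105168777-105169026 on the minus strand.
JAG1 upstream window: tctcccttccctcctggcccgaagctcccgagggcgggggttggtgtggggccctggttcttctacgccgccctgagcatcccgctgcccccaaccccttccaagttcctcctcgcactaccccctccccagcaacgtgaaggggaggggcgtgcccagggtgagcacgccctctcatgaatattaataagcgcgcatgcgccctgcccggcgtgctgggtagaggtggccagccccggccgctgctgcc
JAG2 upstream window: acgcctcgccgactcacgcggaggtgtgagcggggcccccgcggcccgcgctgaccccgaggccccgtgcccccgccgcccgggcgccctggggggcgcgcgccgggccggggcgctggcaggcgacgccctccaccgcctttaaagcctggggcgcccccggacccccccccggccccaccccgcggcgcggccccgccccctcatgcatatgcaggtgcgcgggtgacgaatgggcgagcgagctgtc
G and C made up 68.4% of the JAG1 window and 81.6% of the JAG2 window, against a median of 58% over 35116 RefSeq windows of the same length. A missing match says only that these letters are not in these windows.

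The receptor genes had differences of at most 0.27 in size on the log2 scale, and that of NOTCH1 was above the 95th percentile of all probe sets, 0.22. NOTCH1 has 1 probe set, 218902_at, which stood at 5.79 and 5.66 with celastrol, against 5.36 and 5.55 with DMSO, a difference of 0.27 with both celastrol arrays above both DMSO arrays. The SD was 0.0895 with celastrol and 0.13 with DMSO, so the difference was 2 to 3 times the spread within a group. The NOTCH1 difference was 0.18 without DMSO replicate 1 and 0.36 without DMSO replicate 2. NOTCH2 had 4 probe sets, and they did not go one way. Probe set 210756_s_at stood at 6.19 and 6.15 with celastrol, against 6.36 and 6.24 with DMSO, a difference of -0.13. Probe set 202445_s_at stood at 4.60 and 4.44 with celastrol, against 4.35 and 4.35 with DMSO, a difference of 0.17 at a level below the median of all probe sets. Between them these probe sets put NOTCH2 on both sides of 0. The other NOTCH2 probe sets overlapped between groups, with differences of -0.12 on 212377_s_at and -0.03 on 202443_x_at. The first of these ran from -0.30 to 0.05 as 1 celastrol array or the other was left out. NOTCH3 stood at 5.83 and 5.83 with celastrol, against 5.79 and 6.03 with DMSO, on 203238_s_at. The groups overlapped there and on 203237_s_at, with differences of -0.08 and -0.04.

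Of the nuclear factors, RBPJ was among the brightest members. Its probe set 211974_x_at stood at 9.34 and 9.39 with celastrol, against 9.31 and 9.29 with DMSO, a difference of 0.07 at the 92.9 percentile of brightness. Probe set 207785_s_at stood at 7.10 and 6.98 with celastrol, against 6.94 and 6.97 with DMSO, a difference of 0.09. All RBPJ values with celastrol thus lay above those with DMSO, by 1.05-fold and 1.06-fold in the means. MAML1 stood at 6.69 and 6.60 with celastrol, against 6.66 and 6.64 with DMSO, on 202360_at. Its groups overlapped and their means were 6.65 ± 0.0606 and 6.65 ± 0.0122 (SD, n = 2 each). NUMB, whose protein antagonises the receptor, differed by -0.16 on 209073_s_at and by 0.13 on 207545_s_at. The first of these overlapped between groups and the second did not, so its probe sets were also on both sides of 0.

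Of the 5 probe sets of the target genes, 4 were below the median level of all probe sets. HES1 encodes a transcriptional repressor that is the best known direct target of the pathway. Probe set 203395_s_at stood at 4.86 and 4.96 with celastrol, against 4.89 and 4.89 with DMSO, a difference of 0.01. Probe set 203394_s_at stood at 4.28 and 4.19 with celastrol, against 4.52 and 4.36 with DMSO, a difference of -0.21. Probe set 203393_at stood at 4.15 and 4.15 with celastrol, against 4.15 and 4.07 with DMSO, a difference of 0.04. Only the second of these separated the groups, and the mean levels of all 3 were below the median of all probe sets. HEY1, a related repressor, stood at 5.22 and 5.48 with celastrol, against 5.55 and 5.67 with DMSO, on 44783_s_at. That difference was -0.26, and both celastrol arrays lay below both DMSO arrays. It was -0.13 without celastrol replicate 1 and -0.39 without celastrol replicate 2. On 218839_at the HEY1 groups overlapped, with levels of 4.77 and 4.84 with celastrol, against 4.75 and 4.88 with DMSO, and a difference of -0.01.

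The stretch upstream of HES1 is shown because it carries the pathway's own binding sequence. It is chr3:194135898-194136147 (GRCh38.p14, RefSeq) on the plus strand, 250 bases that end at the base before the start, and the capitals mark TGGGAA or its reverse complement.
HES1 upstream window: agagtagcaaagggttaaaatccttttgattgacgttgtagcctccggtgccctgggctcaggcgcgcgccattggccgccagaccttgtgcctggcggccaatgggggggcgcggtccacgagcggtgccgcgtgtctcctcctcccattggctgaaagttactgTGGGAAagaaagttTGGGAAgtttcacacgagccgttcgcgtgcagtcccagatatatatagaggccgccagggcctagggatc
The window holds 2 such stretches, which begin 84 and 70 bases before the start. In 1 of them a G comes before the core, which makes GTGGGAA. Of 35116 RefSeq windows 20.8% held the core on at least 1 strand, 2.90% held it at 2 or more places and 5.43% held GTGGGAA, whose matches are all matches of the core as well. Windows were found for 9 of the 10 members. HES1 and RBPJ held the core, RBPJ in 1 of its 5 windows, and the windows of the other 7 did not. HES1 also held 3 matches to CACNAG, the N-box that the HES1 protein is known from mouse to bind. Of all windows 32% held it at least once and 6.32% at 2 or more places. These matches describe the letters and show no binding. The HES1 differences beside them ran from -0.21 to 0.04.

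**Figure D3:**
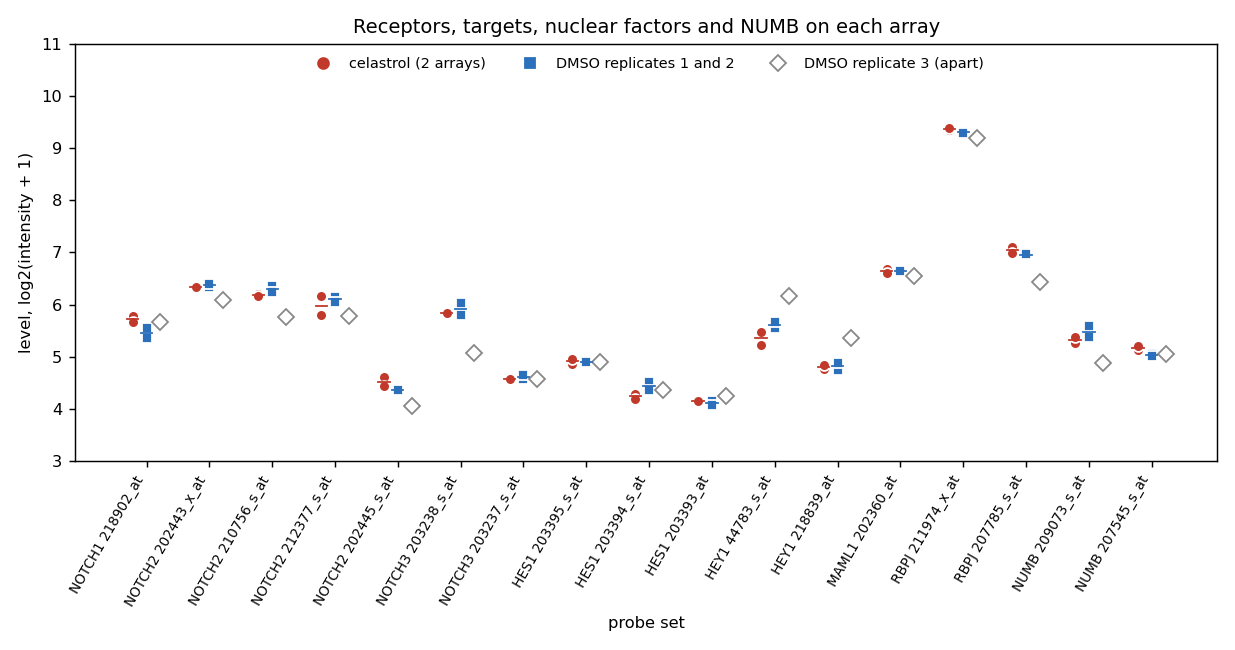
Level of each probe set of the other 8 members on each array, as log2(intensity + 1). Red circles are celastrol arrays, blue squares DMSO replicates 1 and 2, open grey diamonds DMSO replicate 3, and short lines group means. Celastrol and DMSO values lie side by side on every probe set, the widest gap in means being 0.27 for NOTCH1.

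Without JAG1, the 19 probe sets of the other 9 members had differences from -0.26 to 0.27 and a median of -0.03, against a median of 0 over all probe sets. The 5th and 95th percentiles over all probe sets were -0.27 and 0.22, and the NOTCH1 value alone lay outside that range. Groups failed to overlap on 10 of these 19, with 5 lower and 5 higher in celastrol, where 17.6% of all probe sets had both celastrol arrays below both DMSO arrays and 14.5% had them above. The median pooled SD within groups was 0.0677 for these probe sets and 0.0629 over all. Values identical to 6 decimals within a group occurred on 7 of the 23 member probe sets, or 30.4%, against 34.1% of all, so an SD of 0 for a member reflects tied processed values. Some tied values were also shared between celastrol and DMSO arrays, as on JAG1 209097_s_at, NOTCH2 202443_x_at, NOTCH3 203237_s_at and HES1 203393_at. Differences near 0 on these probe sets rest partly on such ties.

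**Figure D4:**
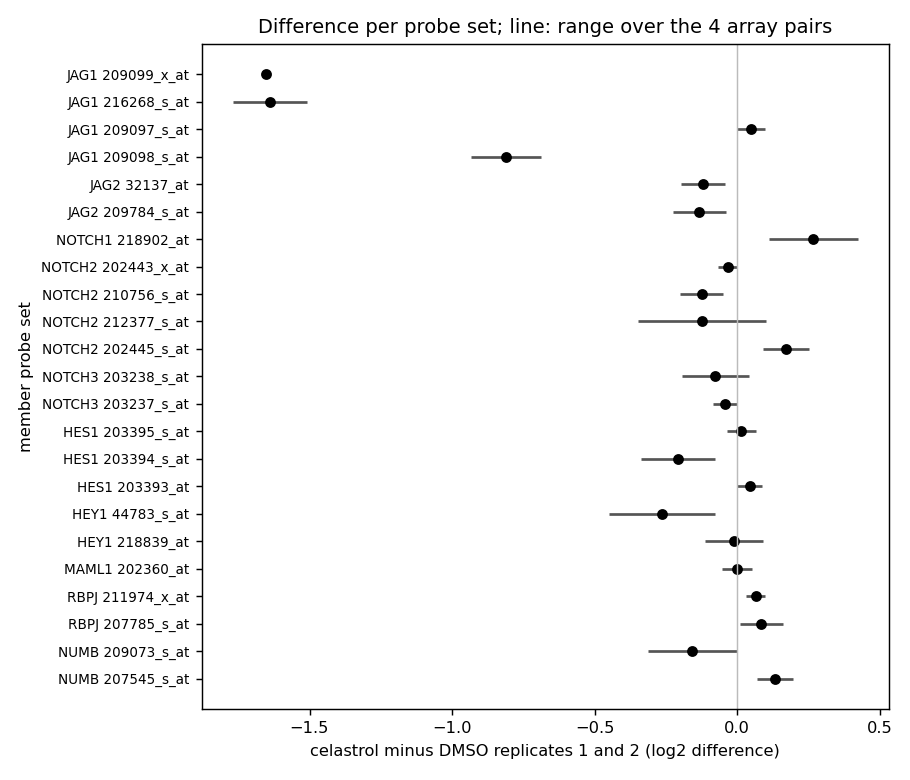
Difference between celastrol and DMSO replicates 1 and 2 (log2) for the 23 member probe sets. Points are differences of group means and lines span the 4 differences between single arrays; on 209099_x_at the line is hidden by the point. The JAG1 probe sets at -1.65, -1.64 and -0.81 stand clear of the others, which lie between -0.26 and 0.27.

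DMSO replicate 3 had the lowest JAG1 levels of all arrays on the 3 probe sets that were lower with celastrol. There 209099_x_at stood at 5.22, 216268_s_at at 5.03 and 209098_s_at at 3.80, each below both celastrol arrays. On 209097_s_at it stood at 5.47, between the DMSO arrays. JAG2 was also low on it, at 4.97 on 32137_at and 4.23 on 209784_s_at, with differences of -2.61 and -2.87 from the mean of DMSO replicates 1 and 2. HEY1 went the other way, at 6.17 on 44783_s_at and 5.36 on 218839_at, above every other array on both. RBPJ, MAML1 and NOTCH1 stood at 9.20, 6.55 and 5.66 there on their brightest probe sets, with differences of -0.10, -0.09 and 0.20 from that mean. The low luminal and high leukocyte markers of this array are given above, and their part in these levels was not tested. When it is averaged with the other DMSO arrays, the JAG1 difference on 209099_x_at is -0.84 and the JAG2 differences turn to 0.75 and 0.82.

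The other genes of the pathway were described from a list by role, with 43 of 60 listed genes measured on 85 probe sets. In the limma fit across all probe sets with Benjamini-Hochberg adjustment, 0 of the 43 genes passed, where 0.0045% of probe sets passed in each direction, and the smallest adjusted p was 0.166, for the corepressor SPEN. At an unadjusted limma p under 0.05 there were 11 of 85 probe sets, 7 higher and 4 lower, or 12.9%, against 13.2% of all probe sets, of which 5.6% were higher and 7.59% lower. Their median difference was 0.0043, against 0 over all probe sets. The list was drawn up with earlier results of these data known.

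Named per role are the genes with the largest differences among those with a mean level of at least 6. Of 2 measured ligands or ligand-like genes and 1 further receptor, DLL3, DLK1 and NOTCH4, none reached that level, and their differences were 0.04, 0.11 and -0.11. Among 5 genes for sugar transfer to the receptor, POGLUT1, an O-glucosyltransferase, differed by 0.22 (SE 0.201) and RFNG, a fringe glycosyltransferase, by -0.04 (SE 0.0618). Among 7 genes of receptor proteases, the gamma-secretase subunit genes APH1A and APH1B differed by 0.14 (SE 0.132) and 0.05 (SE 0.0441). ADAM17, with mean levels below 6, had larger differences of 0.34 on 205745_x_at and 0.31 on 213532_at. Both celastrol arrays lay above both DMSO arrays there, while 205746_s_at of ADAM17 differed by -0.03 and overlapped. Without DMSO replicate 1 the POGLUT1 value was -0.026 and the APH1A value 0.0057, and without DMSO replicate 2 they were 0.46 and 0.28. None of these values passed the test.

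Among 7 genes of ubiquitin ligases and endocytic regulators, the kinase gene AAK1 differed by 0.27 (SE 0.105) and the ligase gene ITCH by 0.18 (SE 0.0427). The acetyltransferase gene CREBBP and SNW1, both nuclear coactivators among 6 measured, differed by 0.27 (SE 0.0531) and 0.24 (SE 0.112). Of 9 corepressor genes, SPEN stood at 7.40 and 7.40 with celastrol, against 7.20 and 7.14 with DMSO, a difference of 0.23 (SE 0.0321). TLE3, of the Groucho family, differed by 0.06 (SE 0.0548). Limma adjusted p for these probe sets, the brightest of each gene, lay between 0.166 and 0.622, so none passed. Apart from SPEN, each gene also had a probe set on the other side of 0. The values were -0.056 for AAK1, -0.064 for ITCH, -0.062 for CREBBP, -0.055 for SNW1 and -0.0017 for TLE3. Further probe sets of AAK1, ITCH, SNW1 and TLE3 were above 0.

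The other target genes held the largest single difference of the list. CDKN1A, the cell cycle inhibitor gene that p53 also switches on, stood at 10.2 and 10.2 with celastrol, against 9.36 and 9.70 with DMSO, a difference of 0.67 (SE 0.138, limma adjusted p = 0.239). CCND1, which encodes cyclin D1, stood at 7.98 and 8.07 with celastrol, against 8.41 and 8.15 with DMSO, a difference of -0.26 (SE 0.116, limma adjusted p = 0.562). Of the 8 probe sets of 6 measured target genes, 7 had differences below 0, with a median of -0.10 over all 8. On that side 5 did not overlap between groups, where 17.6% of all probe sets did so. These 5 were both CCND1 probe sets, the MYC and HEY2 probe sets and HES2 216674_at, so they are not 5 separate genes. HES2, HEY2 and HEYL were near the floor, with levels from 3.97 to 4.21 on the 4 arrays. None of the target genes passed the test.

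**Figure D5:**
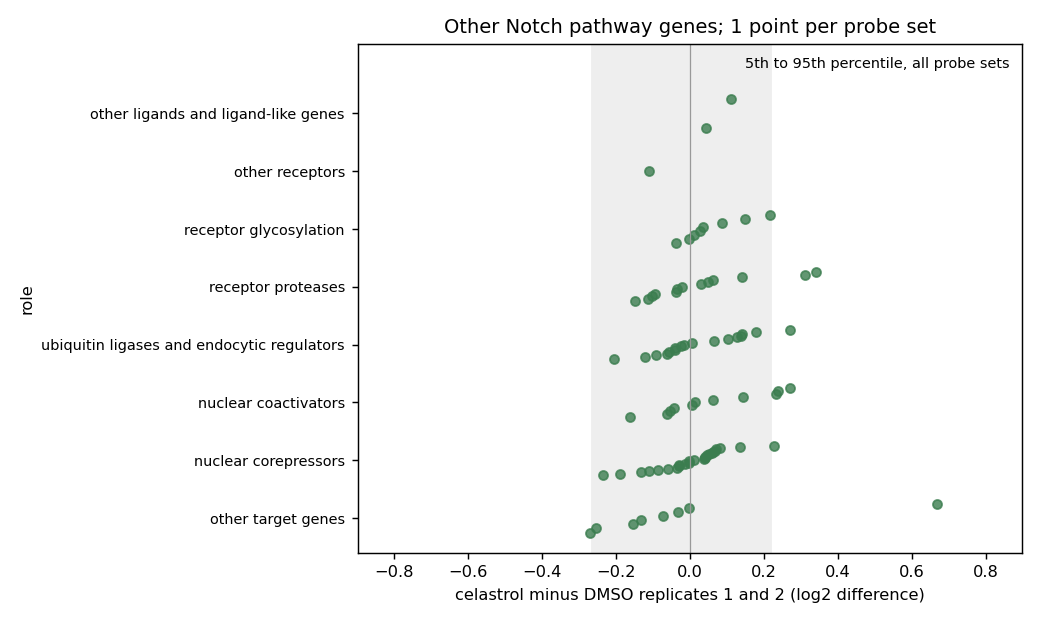
Difference between celastrol and DMSO replicates 1 and 2 (log2) for 85 probe sets of 43 other Notch pathway genes, 1 point per probe set, by role. The shaded band is the 5th to 95th percentile of all probe sets, -0.27 to 0.22. The point farthest from 0 is CDKN1A at 0.67 among the target genes.

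The genes whose levels followed JAG1 most closely were sought by Euclidean distance between levels centred on each probe set's own mean over the 4 arrays, with 209099_x_at for JAG1. The second JAG1 probe set, 216268_s_at, lay at a distance of 0.132. The nearest other named genes were OPRK1, the kappa opioid receptor gene, at 0.15, CYP1A1, a cytochrome P450 gene, at 0.313, and IL1RN, the interleukin 1 receptor antagonist gene, at 0.331. EFNB2, an ephrin ligand gene, followed at 0.426 and TXNIP, a thioredoxin-binding protein gene, at 0.444. OPRK1 stood at 5.71 and 5.60 with celastrol, against 7.16 and 7.21 with DMSO. EFNB2, also a ligand on the cell surface, stood at 6.29 and 6.06 with celastrol, against 7.49 and 7.40 with DMSO, on 202668_at. Likeness over 4 arrays in 2 groups mainly picks genes with a difference of similar size, which were -1.52 for OPRK1, -1.95 for CYP1A1, -1.43 for IL1RN, -1.26 for EFNB2 and -1.21 for TXNIP. With DMSO replicate 3 included, the nearest genes over 5 arrays were OPRK1, IL1RN, TXNIP, PRR15L and ZBTB43, at distances from 0.259 to 0.604. On that array OPRK1 stood at 5.05 and IL1RN at 5.06, beside 5.22 for JAG1 on 209099_x_at, and each was below both celastrol arrays for its gene.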

How the data were processed

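RNA of 5 arrays of LNCaP cells was labelled as biotinylated cRNA by the Affymetrix procedure, per the labels' protocols. The authors deposited linear intensity values, 1 for each probe set on each array. Per the submitters' processing notes, RMA was used; its version is not given in the sources used here. The description field of the DMSO samples speaks of celastrol, so titles and treatment protocols set the groups. Each of the 5 sample columns was used.

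Levels are log2(intensity + 1), with no further normalization. The annotation gives 1 gene for 19724 of 22215 probe sets and several for 568; 1923 stay unnamed here. Symbols were looked up by Entrez ID for 19707 probe sets, and 0 changed. Every probe set was fitted with limma 3.58.1 in R 4.3.3 (lmFit, eBayes, two-sided, Benjamini-Hochberg over all 22215) on 2 celastrol arrays and DMSO replicates 1 and 2, which leaves 2 residual degrees of freedom. The fit was tested on simulated data with normal noise and added differences larger than most seen here. Those data held no tied values, so this checks the code of the fit and not its reach in these data. Members and lists were chosen with earlier results of these data known.

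Named genes are all members, any list gene past the threshold of 0.05, otherwise per role the 2 genes with the largest difference on their brightest probe set at a mean level of at least 6, and the 5 genes most like JAG1. Arrays were not paired by replicate number: across probe sets, replicate 1 minus replicate 2 in celastrol and in DMSO had r = -0.0197. Alternatives covered all 5 arrays, dim filters (40% removed), normalization, an offset of 16, the variance model, a replicate block and leaving out arrays. No detection calls were used.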

Additional observations from a re-analysis of the deposited data

How the results depend on the processing

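The direction of the JAG1 difference on 209099_x_at was negative under all 12 alternatives, and 3 of 4 JAG1 probe sets were below 0 in each. Its value of -1.65 became -0.84 on all 5 arrays, which include the low level of DMSO replicate 3, -1.62 after quantile normalization, -1.63 after median centring and -1.45 with log2(value + 16), and ran from -1.66 to -1.65 with 1 array left out. No member other than JAG1 reached a 2-fold difference under any of them. The median over member probe sets, -0.04, was 0.041 on all 5 arrays, -0.059 and -0.076 with the dim filter over 4 and 5 arrays, -0.021 after median centring and -0.073 to 0 with 1 array left out. On all 5 arrays 15 of 23 member probe sets kept the sign of their difference. The count of calls depends on the setting. It was 2 of all probe sets in the limma fit as reported, 0 on all 5 arrays, 121 and 130 with the dim filter over 4 and 5 arrays, 197 after quantile normalization, 139 after median centring, 43 with log2(value + 16) and 0 whichever 1 of the 4 arrays was left out, where 1 residual degree of freedom remains. The member probe sets called were 1 as reported, 2 with either dim filter, quantile normalization or median centring, all of JAG1, 0 on all 5 arrays, 0 with trend and robust variance and 0 with any 1 array left out. With the replicate number as a block, 0 probe sets and 0 members were called and the JAG1 difference stayed at -1.65. Trend and robust variance left the total at 2 probe sets, but both were higher and 0 lower, so the JAG1 call was lost. With log2(value + 16), 1 member probe set was called, JAG1 209099_x_at. Other Notch pathway genes had 0 calls in every setting. The filters left fewer probe sets to test, while quantile normalization and median centring kept all 22215. The cause of these shifts was not tested. Dim signal may limit HES1, whose 3 probe sets had mean levels below the median of all probe sets. For 203395_s_at the gap was narrow, 4.90 against 4.91. With no detection calls, such a limit was not tested.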

Other observations

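The profile of the array labelled DMSO replicate 3 has no replicate. Of the 85 probe sets of other Notch pathway genes, 8 (9.41%) were more than 2-fold above the mean of DMSO replicates 1 and 2 on it, against 7.52% of all probe sets. A further 13 (15.3%) were more than 2-fold below, against 10.1% of all. Of these, 9 were among the 25 probe sets of corepressor genes, several of them of the same gene, CTBP2. Another 2 corepressor probe sets, both of SPEN, were more than 2-fold above. The examples here were chosen after their values were seen. MFNG, which encodes the Manic fringe glycosyltransferase that modifies Notch receptors, stood at 8.21 on it for probe set 204153_s_at, against 4.62 and 4.45 on DMSO replicates 1 and 2. DTX4, a Deltex family gene, stood at 7.72 on 212611_at, against 5.45 and 5.43 on the other DMSO arrays. FBXW7, whose protein marks the cleaved receptor for degradation, stood at 7.03, against 5.51 and 5.42. On the lower side, the corepressor gene CTBP2 stood at 6.09 on 210835_s_at, against 10.2 and 10.3, and TLE1 at 4.62 on 203221_at, against 7.36 and 7.37. CCND1 stood at 5.73 on 208711_s_at, against 8.41 and 8.15. These values enter any average that includes this array and do not enter the differences taken over the other 4. Whether this array took part in the RMA processing of the other 4 was not tested. NOTCH3 203237_s_at had the same level, 4.57, on it, on both celastrol arrays and on DMSO replicate 1.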
